A study of Mus musculus with 4 samples.

Results

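The genes of the insulin-like growth factor (IGF) family were followed in mammary tumor cells of MMTV-Neu mice that had or lacked Pak1, a p21-activated kinase. The members were the ligand Igf1, the receptors Igf1r and Insr, and the binding proteins Igfbp2, Igfbp3, Igfbp4, Igfbp5, Igfbp6 and Igfbp7. They were chosen by name: every probe that was not a control and that the array files name after one of these 9 genes was taken, which gave 16 of the 39429 probes, and 9 of 31829 gene names. The brightest probe over the 4 arrays stood for a gene with more than 1, and all of its probes are described.

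Total RNA of 4 samples was hybridised to a mouse whole genome array with 60-base probes in a single Cy3 channel. Pak1-/- was the label of 2 samples and Pak1+/+ of the other 2. The design text gives 2 tumors for each genotype but not which sample came from which, so p-values measure only the spread between these samples. All 4 samples carried the MMTV-Neu transgene, in which the mammary tumor virus promoter drives the Neu (Her2) oncogene in mammary epithelium. The cells were cultured in low calcium medium with 5% horse serum, and all of them were serum starved for 3 h and then given EGF for 15 min, so no sample shows the cells without EGF. The labels give no age, sex or strain of the mice.

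IGF1 and insulin bind receptor tyrosine kinases, Igf1r and Insr, which phosphorylate insulin receptor substrates and so switch on the PI3K-AKT and MAPK pathways. The IGF binding proteins are secreted carriers. They hold IGF1 and IGF2 with high affinity, which keeps the ligands in reserve and away from the receptors until a protease cuts the carrier, and Igfbp7 is a relative that binds IGF only weakly. In the mammary gland IGF1 is a growth and survival signal that comes largely from the stroma, and Igfbp5 is known for its rise when the gland involutes after lactation.

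The share of probes well above background was 62.2% to 70.4% per array. The Pak1 probe checks the labels: it gave 12.21 and 12.25 normalized log2 units in the Pak1-/- labelled arrays against 12.04 and 12.04 in the others, a difference of 0.19 (limma adjusted p = 0.070), and with cyclic loess scaling it passed as higher (0.27, adjusted p = 0.027). It was therefore not lower where the labels say the gene is lost, and whether the probe lies in the deleted part is not given in the sources used here. Every direction below rests on the labels. Erbb2, the gene of the Neu oncogene, had a difference of −0.31 log2 (adjusted p = 0.020), a call that was lost without Pak1-/- replicate 1 or either Pak1+/+ replicate. The groups also occupied different positions of 1 slide, so genotype and position cannot be told apart.

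The probe letters are shown first for the genes on which the results turn, Igfbp4, Igfbp5 and Igf1. Each line holds 30 of the 60 bases of a probe, 5′ to 3′, on the strand of the transcript. The stretches of Igfbp4, Igfbp5 and the brightest Igf1 probe are bases 16 to 45. Those of the other Igf1 probes are bases 31 to 60 of A_55_P2085984 and 1 to 30 of A_55_P2031631, which overlap on the genome by 40 bases, and the capitals mark the 20 bases that the printed stretches share.
Igfbp4 (A_52_P257502): attcttggagtgagagagaaagaaagtggt
Igfbp5 (A_52_P281702): tgtagctctctatagtgttacgttcagaca
Igf1 (A_55_P2085979): gccaccaagaccttccctccccttcttaaa
Igf1 (A_55_P2085984): CATTACAAAGATGGGCATTTcccccaatga
Igf1 (A_55_P2031631): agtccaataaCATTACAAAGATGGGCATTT
On mm9 (NCBI37), the build in the file headers, these probes lie at chr11:98913334-98913393 (+), chr1:72904829-72904888 (-), chr10:87378456-87378515 (+), chr10:87393561-87393620 (+) and chr10:87393581-87393640 (+). No other probe of the array had the same 60 bases as any of the 16. Exons and untranslated regions of that build were not used here.

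Igfbp4 and Igfbp5 were far higher in the Pak1-/- labelled arrays, and the brightest probes of the receptors Igf1r and Insr differed by −0.19 and −0.33 log2. By their brightest probes, 3 of the 9 genes were higher (Igfbp3, Igfbp4 and Igfbp5), 2 were lower (Igfbp6 and Insr) and 4 did not pass the threshold (Igf1, Igf1r, Igfbp2 and Igfbp7), with limma's moderated test and an adjusted p of 0.05. Over all 21961 genes tested, 22.8% were higher and 28.2% lower, and 51.0% passed in all, so the count of members that passed is near the background. Igfbp3 and Igfbp4 passed the filter on dim probes only through the arrays in which they were bright, so the count is given as a description. The median difference was 0.041 log2 over the 9 genes and −0.055 over all genes tested. A call with a fitted increase of at least 32-fold was made for 2 members, Igfbp4 and Igfbp5, and for 0.269% of all genes. The 32-fold cut was not part of the plan, and the members were chosen with earlier results known. Nothing is therefore read from this share. Counted by probe, 15 of the 16 were tested, 6 were higher and 2 lower, where 23.3% of all 27229 probes tested were higher, 28.6% lower and 51.9% either. Of the 6 higher probes 5, those of Igfbp3 and Igfbp4 and 3 of Igf1, passed the filter only through the group in which they were bright, and 2 of the Igf1 probes overlap, so nothing is read from this count. With RNA of whole cultures, fewer cells of a type and less RNA per cell cannot be told apart.

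**Figure D1:**
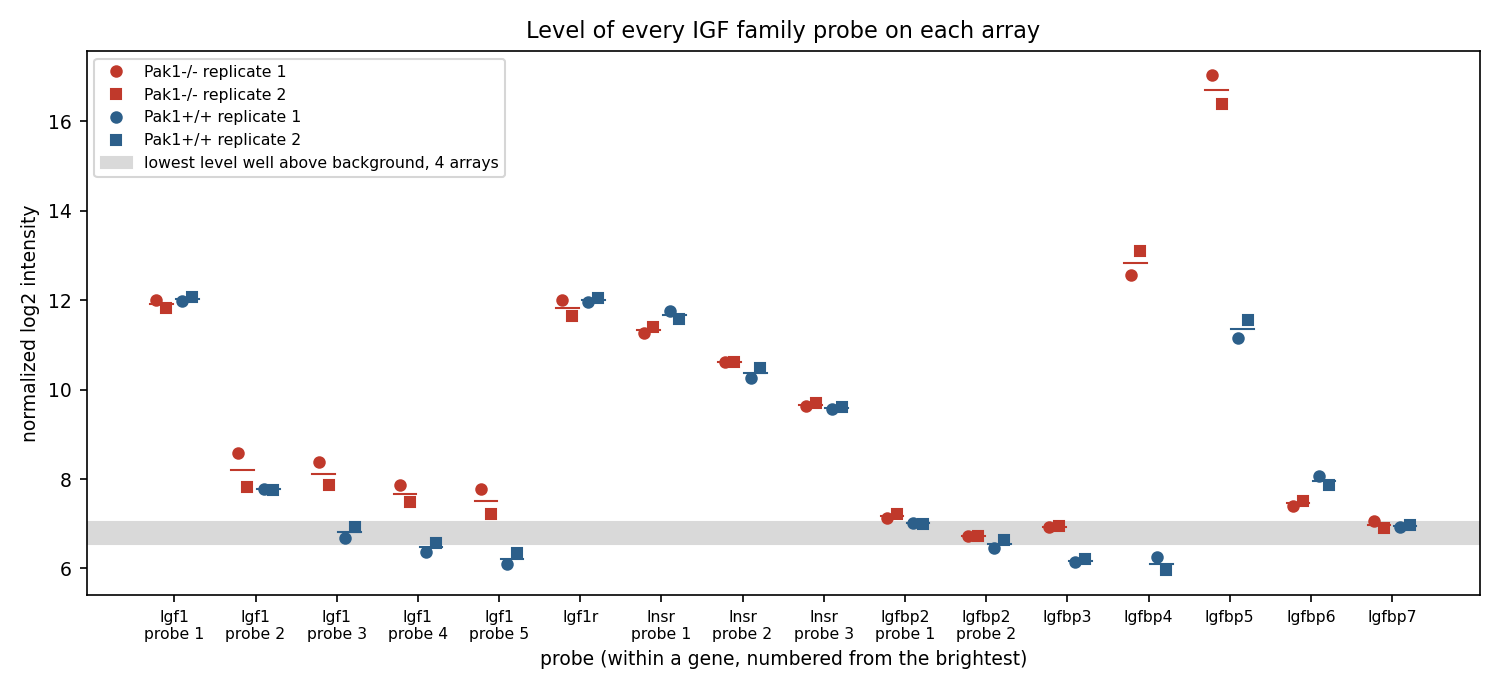
Normalized log2 intensity of the 16 probes on each of the 4 arrays, with red for Pak1-/- and blue for Pak1+/+, circles for replicate 1 and squares for replicate 2, short lines for group means, and a grey band for the lowest value well above background (6.55 to 7.03 on the 4 arrays). Levels of different probes are not comparable. Igfbp4 stands at 12.56 and 13.10 against 6.26 and 5.96, and Igfbp5 at 17.03 and 16.39 against 11.15 and 11.56.

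Igfbp4, a carrier known mainly as an inhibitor of IGF action until the protease Papp-a cuts it, showed the largest change. Its single probe had a normalized log2 intensity of 12.56 and 13.10 in the Pak1-/- labelled arrays against 6.26 and 5.96 in the Pak1+/+ arrays. As scanned, the mean spot intensity was 5811 and 9073 in the first group and 63.1 and 47.9 in the second, over a local background of 39.0 to 45.5. The probe was thus bright in both arrays of one group and not well above background on either array of the other. The level of the Pak1+/+ group is only a bound, and the Pak1-/- labelled arrays were at least 62.4-fold higher. The fitted difference of 6.72 log2 (SE 0.21, limma adjusted p = 0.00012) depends on the background offset and was 6.46 to 9.34 over the alternatives tried. The p-value belongs to this fitted difference and not to the bound.

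Igfbp5, a carrier that also binds the extracellular matrix, was measured well above background on all 4 arrays and was not saturated on any. Its normalized log2 intensity was 17.03 and 16.39 in the Pak1-/- labelled arrays against 11.15 and 11.56. The group means were 16.71 ± 0.45 and 11.36 ± 0.29 (SD, n = 2 each). The difference of 5.35 log2 (SE 0.26, 95% interval 4.67 to 6.03, limma adjusted p = 0.00030) is 40.8-fold, and it exceeded the gap between replicates in both groups. Spot intensities were 113800 and 85540 against 2322 and 2895. The call held under all 14 alternatives, with values from 5.03 to 5.67.

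Igfbp3, the main carrier of IGF in serum, was dim throughout. Its log2 intensity was 6.93 and 6.94 against 6.14 and 6.21, so the groups did not overlap (the groups of 77.6% of all genes did not). It was not well above background on the Pak1+/+ arrays. The difference passed (limma adjusted p = 0.0015), but the bound is only at least 1.05-fold. The fitted difference of 0.76 log2 was 1.70 with an offset of 0 and 2.10 with the processed signal. A further probe, named LOC100045701 and described in the files as similar to Igfbp3, was not well above background on any array. It was looked at after the member values had been seen.

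Igfbp6, a carrier that prefers IGF2, was the binding protein that went the other way. Its log2 intensity was 7.40 and 7.51 in the Pak1-/- labelled arrays against 8.07 and 7.86. The values of the first group lay below those of the second, by 0.50 log2 on average (SE 0.10, limma adjusted p = 0.015). The call did not hold without Pak1-/- replicate 1 (adjusted p = 0.073) or without Pak1+/+ replicate 1 (adjusted p = 0.059).

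Igfbp2 and Igfbp7 did not pass the threshold. The brighter Igfbp2 probe was 7.12 and 7.22 against values of at most 7.03 on the Pak1+/+ arrays, a difference of 0.16 log2 with an interval of −0.04 to 0.36 (limma adjusted p = 0.14), and it was well above background on 3 arrays. The other Igfbp2 probe was not well above background on any array and was not tested. Igfbp7, well above background on 1 array of each group, was 7.06 and 6.90 against 6.92 and 6.96. The difference of 0.041 log2 had an interval of −0.18 to 0.26 (limma adjusted p = 0.72).

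Of the receptors, Igf1r was 12.00 and 11.65 against 11.96 and 12.06, and the groups overlapped. The difference of −0.19 log2 (SE 0.14, limma adjusted p = 0.30) had an interval of −0.55 to 0.17, which includes 0. It was −0.36 without Pak1-/- replicate 1 (adjusted p = 0.054) and −0.015 without replicate 2 of that group (adjusted p = 0.90). Insr was represented by 3 probes, all well above background on all 4 arrays. The brightest was 11.27 and 11.39 against 11.75 and 11.58 and was lower by 0.33 log2 (SE 0.10, limma adjusted p = 0.042). The other Insr probes had differences of 0.24 (adjusted p = 0.11) and 0.079 (adjusted p = 0.41), and did not pass. The lower call held under 1 of 14 alternatives, the stricter filter on dim probes, and was lost whichever array was left out (differences from −0.42 to −0.24). With the mean over the 3 probes the difference was −0.0028 (adjusted p = 0.98).

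**Figure D2:**
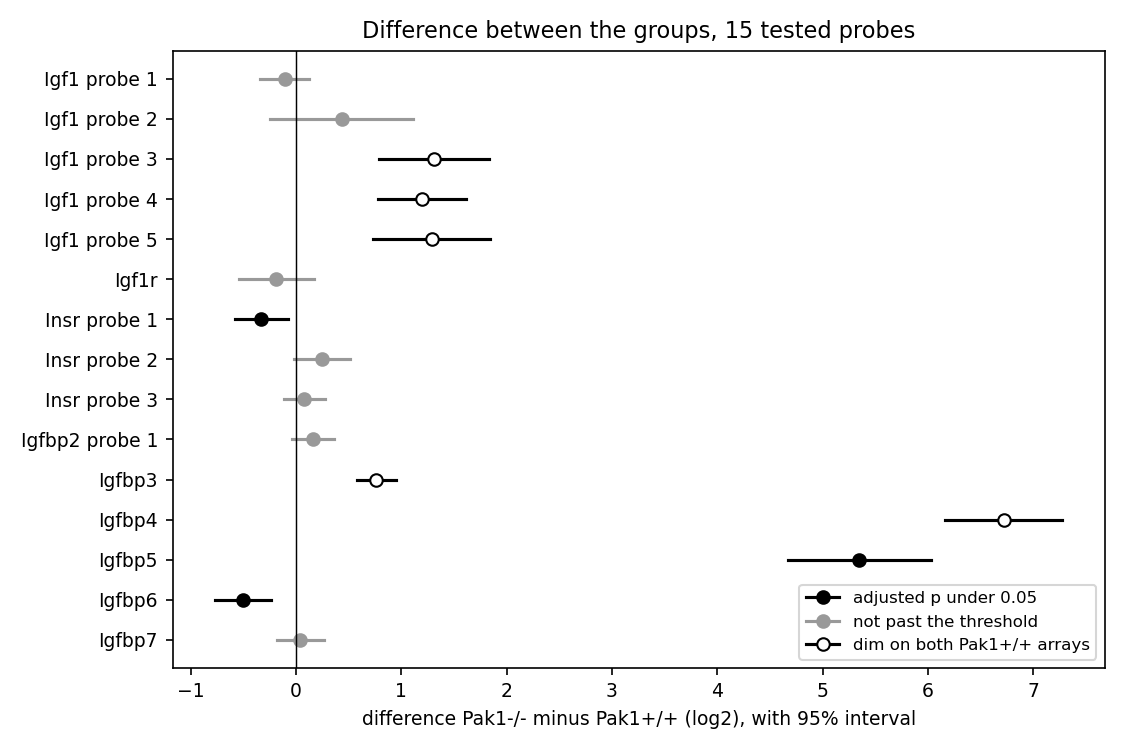
Difference between the groups (Pak1-/- minus Pak1+/+, log2) for the 15 tested probes, with the 95% interval of limma, black where the adjusted p was under 0.05, grey where not, and open circles for probes that were not well above background on both Pak1+/+ arrays. Igfbp4 (6.72) and Igfbp5 (5.35) lie far to the right, while the probes of Igf1r and Insr lie between −0.33 and 0.24.

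Igf1, the ligand itself, gave different answers by probe. The brightest of its 5 probes, annotated to transcript variant 2, was 12.00 and 11.84 in the Pak1-/- labelled arrays against 11.99 and 12.07. The groups overlapped, and the difference of −0.11 log2 had an interval of −0.34 to 0.13 (limma adjusted p = 0.36). The other 4 probes, annotated to variant 1, lie 15.11 to 21.12 kb further along the gene, and 3 of them were higher in the Pak1-/- labelled arrays. The overlapping pair shown above gave 8.37 and 7.87 against 6.68 and 6.94 (A_55_P2031631), and 7.87 and 7.48 against 6.38 and 6.57 (A_55_P2085984). The probe furthest along the gene (A_55_P2085974) gave 7.78 and 7.22 against 6.09 and 6.34. All 3 were not well above background on the Pak1+/+ arrays, so the Pak1-/- labelled arrays were at least 2.39-fold, 1.75-fold and 1.55-fold higher. Their fitted differences were 1.31, 1.20 and 1.29 log2 (limma adjusted p = 0.0059, 0.0040 and 0.0077).

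The remaining Igf1 probe (A_55_P2031636) was well above background on all 4 arrays. It was 8.59 and 7.83 against 7.79 and 7.77, a difference of 0.43 log2 with an interval of −0.25 to 1.11 (limma adjusted p = 0.22). Pak1-/- replicate 1 alone stood apart there: without replicate 2 of that group the difference was 0.81 (adjusted p = 0.0097), and without replicate 1 it was 0.055 (adjusted p = 0.59). Averaging all 5 probes gave 0.82 for Igf1 (limma adjusted p = 0.018), so its sign depends on whether the brightest probe or the mean stands for the gene. That mean takes in probes that passed the filter only through the Pak1-/- arrays, among them the overlapping pair. The overlapping probes share most of their letters and are not separate evidence, and a difference between the probes of a gene was not tested.

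**Figure D3:**
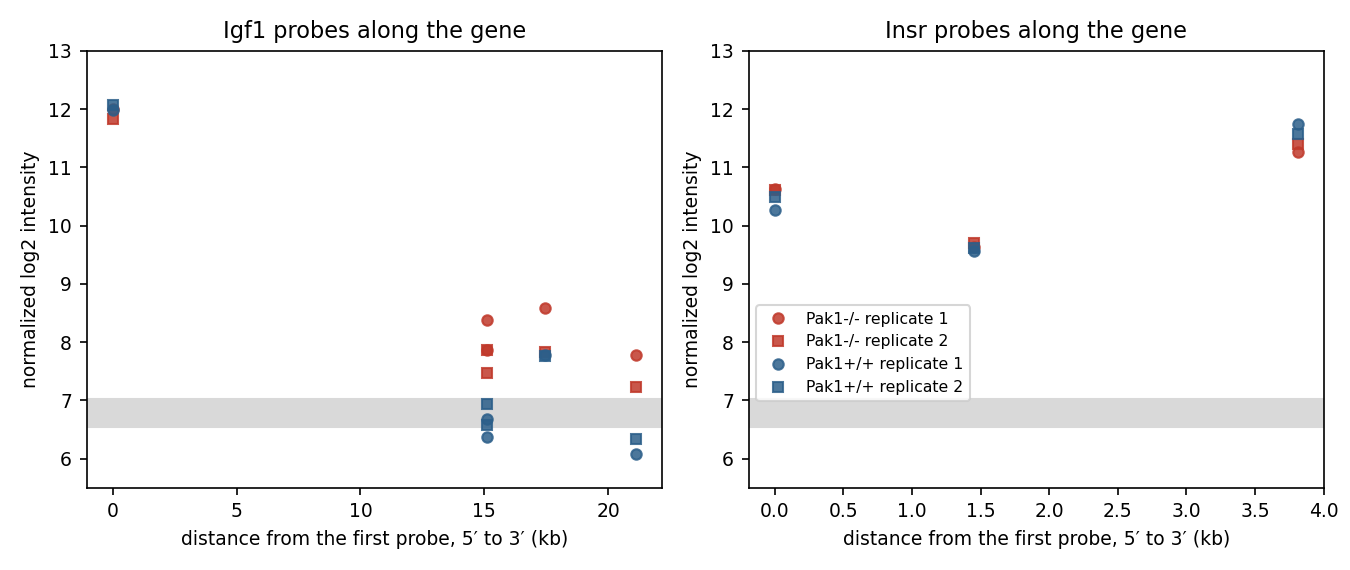
Normalized log2 intensity of the 5 Igf1 probes and the 3 Insr probes against their distance in kb from the probe nearest the start of the gene, with red for Pak1-/-, blue for Pak1+/+, circles for replicate 1, squares for replicate 2 and a grey band for the lowest value well above background. The first Igf1 probe overlaps between groups, while at 15.11, 15.12, 17.47 and 21.12 kb the red points lie above the blue ones. The probe at 17.47 kb did not pass the threshold, and the groups of 77.6% of all genes did not overlap.

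Position on the chromosome was compared next. Igfbp2 and Igfbp5 are neighbours on chromosome 1, and the brighter Igfbp2 probe lies 6.09 kb from the Igfbp5 probe, yet Igfbp5 differed by 5.35 log2 and Igfbp2 by 0.16. Within 500 kb of the Igfbp5 probe 9 other genes were tested, of which 1 was higher and 2 lower, with a median of 0.044 log2. Around Igfbp4 on chromosome 11, 28 genes were tested, of which 7 were higher and 11 lower, with a median of −0.17, where 22.8% of all genes were higher and 28.2% lower. The highest of those 28 was Ormdl3 (0.59). Close to Igfbp4, the DNA topoisomerase gene Top2a was lower by 0.88 log2 (limma adjusted p = 0.017) and Tns4, a focal adhesion protein gene, was lower by 1.65 log2 (adjusted p = 0.0016). No neighbour in either window differed by as much as the binding protein gene itself.

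**Figure D4:**
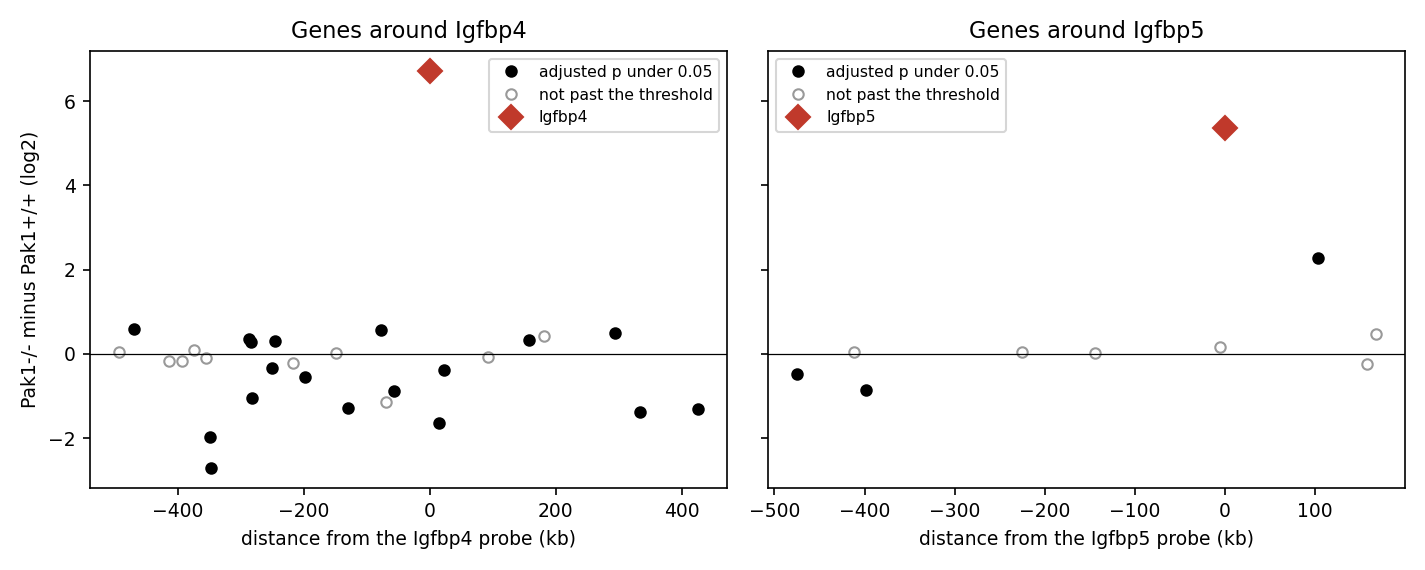
Difference between the groups (Pak1-/- minus Pak1+/+, log2) of the tested genes within 500 kb of the Igfbp4 and Igfbp5 probes, against distance in kb, with filled circles where the adjusted p was under 0.05, open circles where not, and a red diamond for the binding protein gene. The 28 genes around Igfbp4 lie between −2.71 and 0.59 and the 9 around Igfbp5 between −0.86 and 2.27.

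The 250 bases before the annotated start of Igfbp4 and Igfbp5 are shown because both genes were far higher in the same arrays. They are RefSeq sequences of GRCm38.p6, 5′ to 3′ on the gene's strand, at chr11:99040994-99041243 (+) and chr1:72874866-72875115 (-), and the capitals mark matches to the motifs searched.
Igfbp4: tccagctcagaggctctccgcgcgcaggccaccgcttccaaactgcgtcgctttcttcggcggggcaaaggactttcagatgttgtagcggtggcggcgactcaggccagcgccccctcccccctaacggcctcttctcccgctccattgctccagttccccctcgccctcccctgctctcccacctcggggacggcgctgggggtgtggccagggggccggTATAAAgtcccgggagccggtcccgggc
Igfbp5: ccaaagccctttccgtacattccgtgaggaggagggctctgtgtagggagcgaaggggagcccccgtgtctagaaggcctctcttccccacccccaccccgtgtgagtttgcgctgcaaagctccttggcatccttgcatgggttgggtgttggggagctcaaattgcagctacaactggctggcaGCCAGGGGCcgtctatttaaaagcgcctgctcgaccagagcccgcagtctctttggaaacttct
The motifs were TATAAA, the GC box GGGCGG, the AP-1 site TGACTCA and the AP-2 site GCCNNNGGC, each on both strands of these 250 bases, and no matches overlapped in these windows. Igfbp4 held TATAAA 28 bases before its start, as did 12.4% of all 32851 windows at any position, and Igfbp5 held the AP-2 letters 64 bases before its start, as did 13.7%. No motif was found in both. Among the 8 members with a window, TATAAA also occurred in Igfbp6, the GC box in Igfbp2, Igfbp7 and Igf1r (32.7% of all windows), and TGACTCA in 1 of the 2 windows of Igfbp2 (4.46%). A match is a description of letters and not of binding.

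Other genes of the IGF axis were taken from a list of 27. All had a probe, 8 were not well above background on enough arrays to be tested (Igfbp1, Pappa2, Stc1, Grb10, Igf2bp3, Igfbpl1, Esm1 and Nov), and of the 19 tested 9 were higher and 7 lower, where 22.8% and 28.2% of all genes tested were. Their median was 0.21 log2, beside −0.055 over all genes. Probes bright in a single group pass the filter through that group, so these counts are a description.

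Among the ligands, receptors and carriers, Igfals, which encodes the acid labile subunit of the serum IGF complex, was lower, at 9.33 and 9.02 against 11.88 and 12.01 (−2.77 log2, SE 0.13, limma adjusted p = 0.00026). Igf2r, the receptor that clears IGF2, was higher by 0.39 log2 (adjusted p = 0.027), and that call was lost in 5 of 13 alternatives, among them the fits without Pak1-/- replicate 1 (adjusted p = 0.081), Pak1+/+ replicate 1 (0.065) or Pak1+/+ replicate 2 (0.12). Igf2 itself was at the edge of detection, at 6.87 and 6.95 against 6.72 and 6.68. It passed the filter only through the Pak1-/- arrays, and its bound is only at least 1.02-fold. The difference did not pass (limma adjusted p = 0.069), though it did with a background offset of 0 (0.38, adjusted p = 0.028). Insrr, a receptor relative, did not pass either (0.14, adjusted p = 0.35).

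Of 5 listed genes for proteases that cut the carriers and for their inhibitors, 3 were tested and 3 were higher, beside 22.8% of all genes. Pappa, which encodes the protease that cuts Igfbp4 and Igfbp5, was 9.24 and 8.83 against 8.14 and 7.90 (1.02 log2, limma adjusted p = 0.0080). Stc2, which encodes a secreted inhibitor of that protease, was 12.78 and 12.76 against 10.24 and 10.33 (2.48 log2, SE 0.07, adjusted p = 0.00011). Htra1, a serine protease gene, was higher by 0.62 log2 (adjusted p = 0.0078). Both the protease and its inhibitor were thus higher in the same arrays as Igfbp4 and Igfbp5.

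Downstream of the receptors, the substrate genes Irs1 and Irs2 were lower by 0.79 and 0.82 log2 (limma adjusted p = 0.0014 and 0.0015), and a second Irs1 probe was lower too (−0.60, adjusted p = 0.0056). Grb14, an adaptor known to inhibit the insulin receptor, was lower by 1.39 log2 (adjusted p = 0.0015). The adaptor Shc1 was higher by 0.67 log2 (adjusted p = 0.0019), while the phosphatase Ptpn1 did not pass (0.079, adjusted p = 0.42). Of the IGF2 mRNA binding proteins, Igf2bp1 was 6.86 and 6.71 against 10.42 and 10.44 (−3.64 log2, adjusted p = 6.7e-05, well above background on 1 Pak1-/- array), a size that depends on the background handling and was −4.46 with an offset of 0 and −5.17 with the processed signal, and Igf2bp2 was lower by 0.99 log2 (adjusted p = 0.0024).

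Among secreted proteins that share the IGFBP-type domain but are known mainly as matrix proteins, 4 of the 5 tested were higher, beside 22.8% of all genes. Wisp1 passed the filter only through the Pak1-/- arrays. Cyr61 was 17.34 and 16.75 against 14.76 and 14.94 (2.19 log2, limma adjusted p = 0.0017), Ctgf was higher by 1.61 log2 (adjusted p = 0.0032) and Wisp2 by 2.71 log2 (adjusted p = 0.00093), or 3.56 with the processed signal. Wisp1, dim on both Pak1+/+ arrays, was at least 13.6-fold higher by its brighter probe. Its fitted difference of 3.82 log2 (limma adjusted p = 0.0011) was 5.32 with the processed signal. Kazald1 was lower by 0.45 log2 (adjusted p = 0.011), a call lost without Pak1+/+ replicate 1 (adjusted p = 0.053).

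**Figure D5:**
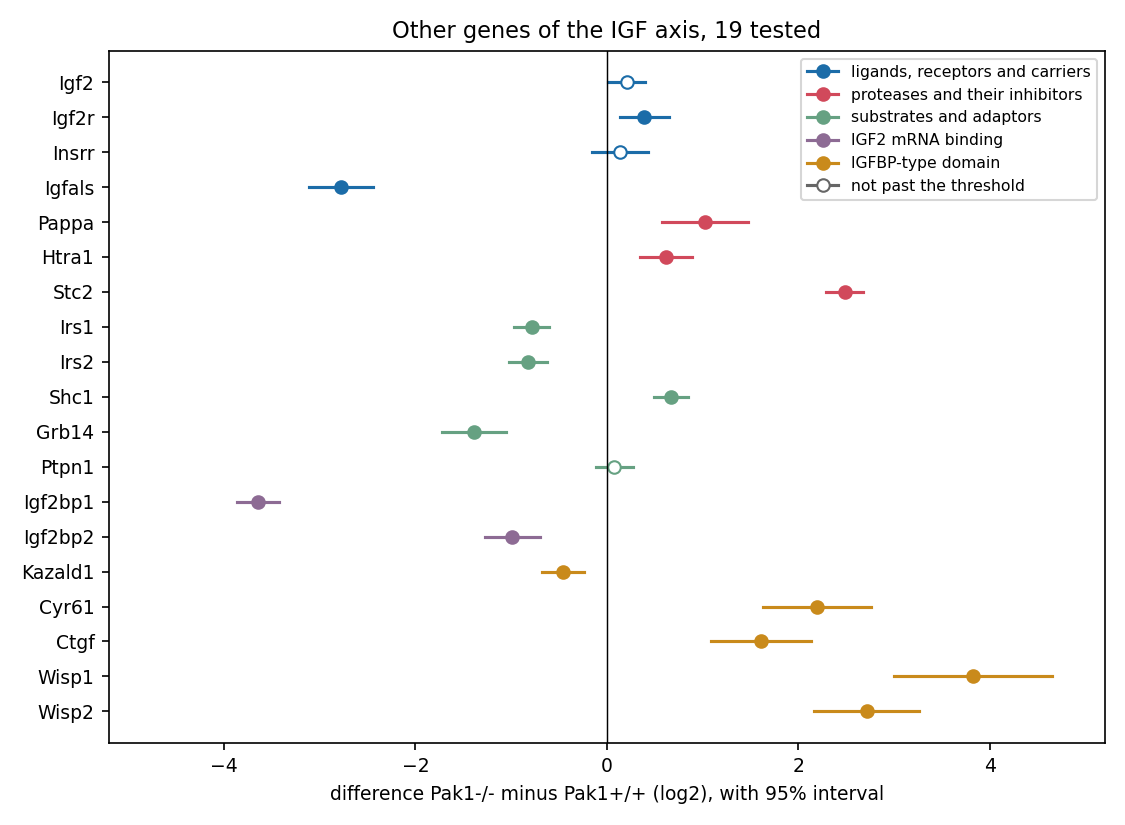
Difference between the groups (Pak1-/- minus Pak1+/+, log2) of the 19 tested genes of the IGF axis outside the members, with the 95% interval of limma, colours for the role, filled circles where the adjusted p was under 0.05 and open circles where not. Values run from −3.64 (Igf2bp1, well above background on 1 of the 2 Pak1-/- arrays) to 3.82 (Wisp1, whose Pak1+/+ level is only a bound).

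Igfbp5 had the largest difference among called members measured on all 4 arrays, and 19105 other genes were ranked by the distance of their pattern from it over the 4 arrays, each gene's own mean removed. The closest were Timp1 (distance 0.31 log2), Tgtp2 (0.36), Ifi47 (0.46), Krt17 (0.48) and Tmeff1 (0.49). With 4 arrays in 2 groups, such a distance mostly reads the size of the difference, which was 4.92 to 5.60 log2 for these 5 genes.

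Markers of other cells were examined beside these values. The luminal markers Krt8, Krt18, Epcam, Cdh1, Elf5 and Gata3 were well above background on all 4 arrays, and 4 of 8 luminal genes were higher in the Pak1-/- labelled arrays (22.8% of all genes were), Cdh1 the most (1.19 log2, limma adjusted p = 0.0012). Epcam (−0.23), Elf5 (−0.35) and Krt19 (−0.64) had differences of the other sign and did not pass. The summed linear level of the 8 luminal genes was 991400 to 1001000 in the Pak1-/- labelled arrays and 777600 to 779700 in the others, and most of it came from Krt8 and Krt18. Levels of different probes are not comparable, so each sum here mostly reads its brightest probes and is not the level of a cell type. All 6 tested of 7 basal or myoepithelial genes were higher, with a summed level of 91100 to 101100 against 19260 to 19730 that came mostly from Krt14 in the first group, and Myh11 was not well above background on any array. Of 10 fibroblast genes 5 were tested and 2 were higher, Col1a1 and Postn (which passed the filter only through the Pak1-/- arrays), with a summed level of 2477 to 3689 against 1383 to 1993, while Col3a1, Pdgfrb, Dcn and Lum never stood well above background. Of the others, 0 of 6 adipocyte, 0 of 6 endothelial and 0 of 8 leukocyte genes were higher, 2 leukocyte genes (Ptprc and Emr1) were lower, and Adipoq, Lep, Tek, Emcn and Lyz2 were not well above background anywhere. Of those lists 1, 4 and 6 genes were tested. Their summed levels were 555 to 655.9 against 617.2 to 649.4 for adipocyte, 10130 to 10510 against 9207 to 10980 for endothelial and 52330 to 74990 against 43720 to 48270 for leukocyte genes. The adipocyte sum lies near background, since 0 of the 6 genes stood well above it on all 4 arrays. Most of the leukocyte sum came from 1 probe, of Itgam (16.07 and 15.51 against 15.39 and 15.20, limma adjusted p = 0.11), while the called leukocyte genes were lower. A dimmer probe of the endothelial gene Kdr passed the filter only through the Pak1-/- arrays and was at least 2.17-fold higher. Its fitted difference was 1.37 log2 (limma adjusted p = 0.00046), while the brightest Kdr probe did not pass. The called basal, luminal and fibroblast genes were higher in the same arrays as Igfbp4 and Igfbp5, and their part in the result was not tested.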

How the data were processed

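Linear spot intensities were read from the deposited output of Agilent Feature Extraction 9.5.3.1, to which no scaling across arrays had been applied. A log2 table deposited by the authors, normexp corrected and quantile normalized per their methods, has values in 24008 of 39485 rows and served as an alternative. Here normexp (offset 50) was fitted on all spots with limma 3.58.1 in R 4.3.3, control spots were left out, the rest were quantile normalized, and the spots of a probe were averaged without those flagged as outliers. The fit took the 27229 probes that stood well above background in 2 or more of the 4 arrays, with genotype as the only term, two-sided, and p-values were adjusted over all of them by the Benjamini-Hochberg method. The offset and the filter are choices made here. The fit had 2 residual degrees of freedom, and the prior contributed 2.62 more. With 2 samples a group, exact permutation p-values cannot go below 0.333, so none was computed. The number of arrays limits the precision. For a probe not well above background in a group, "at least N-fold" compares the bright group's mean with a floor: on each array, the dim probe's signal or the lowest signal well above background, whichever is larger. The method was tested on simulated data. Alternatives changed the background offset, the scaling, the filter, the threshold, the replicate block, the value table, the rule for a gene's probe and the replicates included. All 9 members, every gene of the other IGF axis list, Pak1, Erbb2 and the 5 nearest patterns are named by rule. Neighbours within 500 kb, the Igfbp3-like probe and the motifs were chosen after values had been seen. The 32-fold cut was not part of the plan. Members and lists were chosen with earlier results of these data known. Promoter windows are from RefSeq, which held 9 windows for 8 of the 9 members.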

Additional observations from a re-analysis of the deposited data

How the results depend on the processing

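Igfbp4 and Igfbp5 kept their direction and call under all 13 and 14 alternatives that gave them a value, and so did Igfbp3 under 13. For Igfbp3 and Igfbp4 these alternatives reuse Pak1+/+ signals not well above background, so they do not test detection. The Igfbp3 bound stays at only at least 1.05-fold. The count of members that were higher (3) was 1 when a probe had to be well above background on all 4 arrays. Igfbp3 and Igfbp4 are then not tested. The count was 4 when probes of a gene were averaged, with Igf1 added, whose mean takes in probes bright only in the Pak1-/- arrays. The count of lower members (2) was 1 with a normexp offset of 0, with the processed signal at the 75th percentile, with cyclic loess, with normexp values at the 75th percentile, without a filter, with the authors' log2 table and when probes of a gene were averaged, and 0 at an adjusted p under 0.01. In leave-one-out fits it was 0 to 1. Outside the leave-one-out fits, Igfbp6 kept its call and Insr lost it wherever that count was 1, and both lost it at an adjusted p under 0.01. Why the Insr call moved was not tested. Across all probes 14132 passed, and 8878 at an adjusted p under 0.01. Of the probes that passed, 44.9% were higher in the main fit and 52.4% with cyclic loess, so the balance of directions depends on the scaling. The sign of Igf1 changed with the mean over its probes (0.82), and that of Igfbp7 in leave-one-out fits (−0.038 to 0.12).

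The replicate numbers pair the samples by number only: the differences between replicates of the 2 groups had a correlation of −0.028 across probes, which are not independent replicates. With the replicate block the lower count was 1: Igfbp6 was called (adjusted p = 0.025), Insr was not (adjusted p = 0.069), and the higher count was 3. In leave-one-out fits the lone sample of a group is taken to vary like the other group. Of 122 values of single members under the alternatives, 104 gave the same call and sign, 16 were no longer called and 2 changed sign. Signal over background limits Igfbp2, Igfbp3, Igfbp4 (its Pak1+/+ level), Igfbp7 and 3 Igf1 probes.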
